A study of Mus musculus with 5 samples.

Results

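Myeloid and macrophage transcripts were followed in haematopoietic stem cells (HSCs) of mouse bone marrow. The 10 genes are the C1q subunits C1qa, C1qb and C1qc, the lysozyme gene Lyz2, the receptor genes Csf1r and Csf3r, the primary granule genes Mpo, Elane and Ctsg, and the transcription factor gene Cebpa. All 10 were found by symbol among the 35976 gene rows of the count table. They were picked because C1qc was read in every library labelled Ythdf3-/- and was nearly absent under the WT label, so their levels between the labels are described here without a test.

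The labels give 3 libraries of Ythdf3-/- mice and 2 of WT mice, all of strain C57BL/6, while the series text counts 2 knockout and 3 wild-type samples and states that each came from a different mouse. YTHDF3 is a protein that binds N6-methyladenosine on messenger RNA in the cytoplasm; neither the allele nor the age of the mice is given in the sources used here. Each library was made by Smart-seq2, a full-length cDNA method without strand or molecule tags, from 30 cells sorted against CD34 and lineage markers and for CD150, c-kit and Sca-1. Total counts lay between 6357862 and 9076806 under the Ythdf3-/- label and were 16650134 and 8968162 under the WT label.

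The targeted gene did not follow the labels: Ythdf3 counts were 2, 339 and 366 for the labels Ythdf3-/- 1, 2 and 3, against 20 and 29 counts in those labelled WT 1 and WT 2. The library labelled Ythdf3-/- 1 was the lowest of the series and those labelled Ythdf3-/- 2 and 3 the highest, so the groups overlapped. As the allele is not given, the reads it would leave are not known. Libraries are therefore named by their labels, and Ythdf3-/- and WT stand for the labels alone in every value and direction given. Transcripts of the sort's positive markers were present: Kit had at least 2212 counts and Ly6a, the Sca-1 gene, at least 1070 counts in each library. Slamf1, the CD150 gene, had between 211 and 354 counts under the Ythdf3-/- label, and 482 counts in the library labelled WT 1 but 1 count in that labelled WT 2. Cd34, whose product the sort selected against, had 891, 20 and 1709 counts under the Ythdf3-/- label and 3455 and 522 counts under the WT label. Transcripts of other lineages differed among libraries of the same label: the 12 erythroid genes summed to 37700 CPM (counts per 1000000 of the library total) in the library labelled Ythdf3-/- 1 and to between 1973 and 3211 CPM in the others. In those others Car2 was the top gene, at between 1743 and 2596 CPM. The globin genes were highest in the library labelled Ythdf3-/- 1, but some erythroid genes were read mainly in that labelled WT 2. Gata1 had 1061 counts there and at most 6 elsewhere, and Car1 had 4093 counts there and at most 24 elsewhere.

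C1q is the recognition molecule of the classical complement pathway, built from A, B and C chains whose genes lie side by side, and in the mouse it is made mainly by macrophages and dendritic cells. Myeloperoxidase, neutrophil elastase and cathepsin G are packed into the primary granules of promyelocytes, and C/EBPalpha drives the step from early progenitors to granulocytes and monocytes. The receptors for CSF1 and G-CSF, encoded by Csf1r and Csf3r, carry the signals for macrophages and for neutrophils.

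Among the C1q genes, C1qc was read in all 3 libraries labelled Ythdf3-/-, whereas C1qa and C1qb were each missing or nearly missing from 1 of the 3. In the mm10 build the genes lie on chromosome 4 on the minus strand, C1qb at 136880126 to 136886200, C1qc at 136889801 to 136892936 and C1qa at 136895916 to 136898844. The gaps between their spans are 3600 and 2979 bases, and no exon of any of them overlaps another gene in the GENCODE M21 annotation. The RefSeq promoter table of the build GRCm38.p6 (250 bases before to 50 after the start) holds C1qc at chr4:136892865-136893164 and C1qb at chr4:136886151-136886450, both minus strand. They are shown because C1qc but not C1qb was read in the library labelled Ythdf3-/- 1, and C1qb but not C1qc in that labelled WT 2. Both had counts in the remaining libraries. Capitals mark GAGGAA, the core letters of many sites of the myeloid factor PU.1, or its complement TTCCTC.
C1qc: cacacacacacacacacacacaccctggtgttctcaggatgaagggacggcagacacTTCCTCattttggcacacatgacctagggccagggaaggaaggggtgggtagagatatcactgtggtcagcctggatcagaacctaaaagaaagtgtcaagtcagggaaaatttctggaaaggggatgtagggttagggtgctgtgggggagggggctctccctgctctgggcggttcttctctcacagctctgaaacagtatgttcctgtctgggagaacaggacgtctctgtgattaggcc
C1qb: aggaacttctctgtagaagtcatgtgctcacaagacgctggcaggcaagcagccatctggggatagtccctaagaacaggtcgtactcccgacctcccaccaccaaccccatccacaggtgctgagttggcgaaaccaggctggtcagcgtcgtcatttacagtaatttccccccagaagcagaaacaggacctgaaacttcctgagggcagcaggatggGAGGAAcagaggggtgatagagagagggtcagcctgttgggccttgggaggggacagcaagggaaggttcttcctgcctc
The letters were found once in each window, starting 193 bases before the start of C1qc on the opposite strand and 30 bases before the start of C1qb. Among all 32851 promoter windows of this length 28.3% hold them on either strand, and 6 of the 8 members with a window do. C1qa and Csf1r had no window here. Whether the members hold the letters more often than other genes was not tested, nor was binding of PU.1.

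For C1qc, the C chain gene, counts were 364, 298 and 259 in Ythdf3-/- 1, 2 and 3 as labelled, against 10 and 0 in WT 1 and WT 2 as labelled. As levels these are 57.3, 32.8 and 36.9 CPM for Ythdf3-/- against 0.601 and 0 CPM for WT, so the groups did not overlap. The log2 fold change fitted by edgeR, Ythdf3-/- over WT, was 6.97 (SE 2.63), a value that chose the set and is given as a description. It was 11.34 without the library labelled WT 1, where WT 2, at 0 counts, is alone under the WT label and the fit depends on its prior count, and 6.07 without that labelled WT 2. With libraries of 30 cells, fewer cells of a type and less RNA per cell cannot be told apart.

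C1qa, the A chain gene, had 213, 1 and 164 counts under the Ythdf3-/- label, in the order 1, 2 and 3, against 8 and 0 counts for WT 1 and WT 2. In the library labelled Ythdf3-/- 2 it was thus below the level of the library labelled WT 1, at 0.110 CPM for Ythdf3-/- 2 against 0.481 CPM for WT 1, and the groups overlapped. Its mean was 19.0 ± 17.1 CPM (SD, n = 3) under the Ythdf3-/- label and 0.240 ± 0.340 CPM (SD, n = 2) under the WT label, a fitted log2 fold change of 6.12 (SE 3.57). Without the library labelled Ythdf3-/- 1, or without that labelled Ythdf3-/- 3, C1qa no longer passed the filter on low counts and had no fitted value. The fitted value was 10.17 without WT 1, against WT 2 alone at 0 counts, where it too depends on the prior count.

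C1qb, the B chain gene, ran the other way in 2 of the libraries. It had 0, 280 and 242 counts under the Ythdf3-/- label, against 12 and 425 counts under the WT label. The highest C1qb level of the series, 47.4 CPM, was in the library labelled WT 2, where C1qa and C1qc had 0 counts. By counting error alone, a count of 0 allows up to 3 counts, which is 0.335 CPM in that library and 0.472 CPM in the library labelled Ythdf3-/- 1. The fitted log2 fold change of C1qb was -0.27 (SE 2.54); it was 4.87 once WT 2 was left out, 0.36 once Ythdf3-/- 1 was left out and -1.25 once WT 1 was left out, so its direction rests on single libraries.

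**Figure D1:**
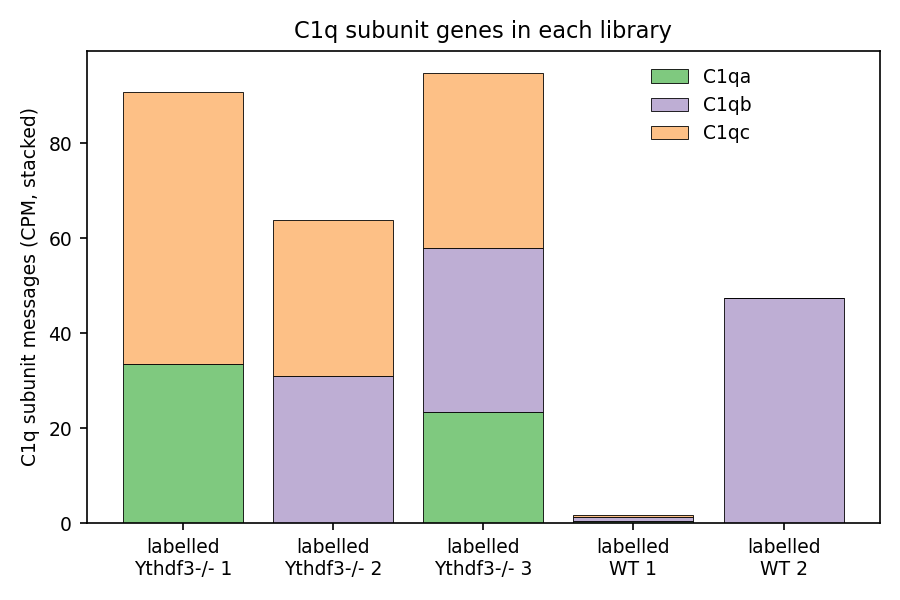
Stacked bars give the CPM of C1qa, C1qb and C1qc in each of the 5 libraries, 3 labelled Ythdf3-/- on the left and 2 labelled WT on the right. C1qc appears in the 3 bars labelled Ythdf3-/-, and the bar labelled WT 2 consists of C1qb alone.

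The make-up of C1q reads differed from library to library. In the library labelled Ythdf3-/- 3 all subunits were read, C1qa with 24.7% of 665 C1q counts (95% Wilson interval 21.5 to 28.1), C1qb with 36.4% (32.8 to 40.1) and C1qc with 38.9% (35.3 to 42.7). In that labelled Ythdf3-/- 1 C1qb took 0 of 577 counts (upper limit 0.661%). C1qa took 0.173% (0.0305 to 0.972) of 579 counts in that labelled Ythdf3-/- 2, and in the library labelled WT 2 all 425 C1q counts were of C1qb. In the library labelled WT 1 only 30 C1q counts were present, spread over all subunits, with C1qa at 26.7% (14.2 to 44.4), inside an interval as wide as that depth allows. The intervals cover counting error only, since amplified reads are not independent molecules. Over all subunits the C1q level was 90.8, 63.8 and 94.8 CPM under the Ythdf3-/- label and 1.80 and 47.4 CPM under the WT label.

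Low but non-zero counts such as the 8, 12 and 10 of the C1q genes were frequent in the library labelled WT 1. Of the 1613 genes under 1 CPM there and at 20 CPM or more in another library, 44.4% had more than 3 counts, whereas in the other libraries this share lay between 8.26% and 27.2%. That library also had the largest total. A level under 1 CPM allows more counts in a deeper library, so this share depends on depth by its definition. How much of the difference in share goes with depth was not tested. Absence from some libraries was common in the series as a whole: of 10595 genes at 20 CPM or more somewhere, 44.4% were under 1 CPM in at least 1 library and 12.0% in 2 libraries, the number in which C1qb and C1qc were under 1 CPM.

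Lyz2, which encodes the lysozyme of macrophages and neutrophils, was the member read most, and it was present in every library. It lies on chromosome 10 at 117277541 to 117282272 on the minus strand. Its counts were 6382, 6101 and 4310 under the Ythdf3-/- label, against 7220 and 3731 under the WT label. Scaled to depth, these are 1004, 672 and 614 CPM for Ythdf3-/- against 434 and 416 CPM for WT, so every library labelled Ythdf3-/- lay above both labelled WT. Lyz2 averaged 763 ± 210.2 CPM under the Ythdf3-/- label (SD, n = 3) and 425 ± 12.4 CPM under the WT label (SD, n = 2), with a fitted log2 fold change of 0.76 and an SE of 0.34. Leaving out single libraries gave between 0.54 and 0.90. Lyz2 made up between 76.5% and 90.7% of all counts of the 10 members under the Ythdf3-/- label, and 99.1% and 77.9% under the WT label.

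The gene next to it, Lyz1, encodes the near-identical lysozyme of the gut and had 2 counts in Ythdf3-/- 1, as labelled, and 0 in the others. How reads matching both genes were counted is not given in the sources used here. The promoter window of Lyz2 (GRCm38.p6, chr10:117282223-117282522, minus strand) is shown because this member alone was read at a high level throughout; it holds no GAGGAA on either strand.
Lyz2: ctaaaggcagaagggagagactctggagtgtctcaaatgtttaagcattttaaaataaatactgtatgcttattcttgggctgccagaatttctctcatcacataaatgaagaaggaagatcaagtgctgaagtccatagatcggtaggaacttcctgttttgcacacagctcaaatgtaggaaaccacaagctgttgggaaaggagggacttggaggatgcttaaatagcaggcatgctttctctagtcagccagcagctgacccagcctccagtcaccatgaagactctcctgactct
None of the 8 member windows holds TTGCNNAA, a pattern of C/EBP sites searched on both strands, against 10.8% of all windows. This difference was not tested either.

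**Figure D2:**
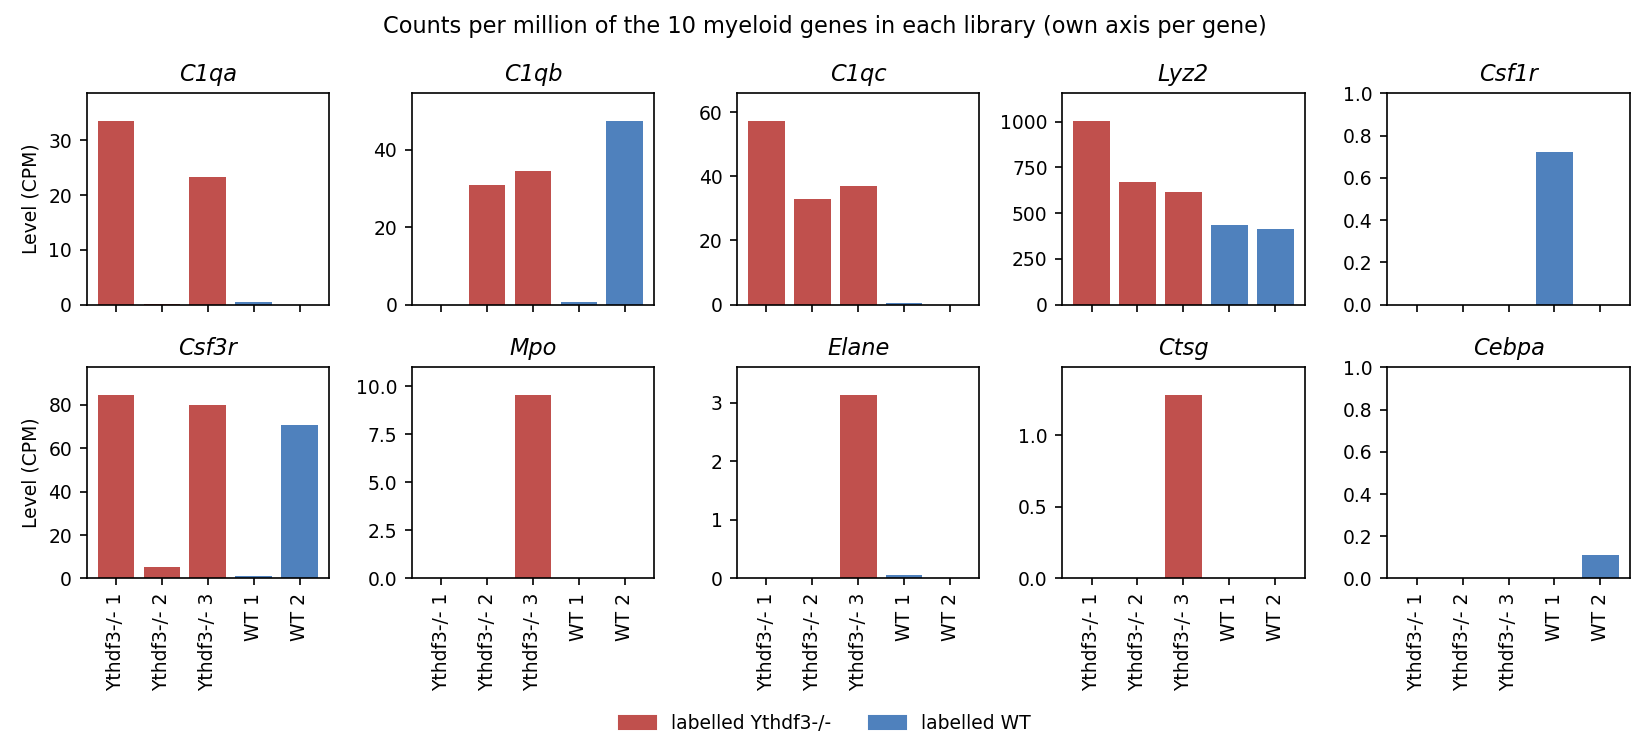
Bars give the CPM of each of the 10 members in each library, with an axis of its own per gene; libraries labelled Ythdf3-/- are red and on the left, those labelled WT blue and on the right. Lyz2 is present throughout, C1qc only in the red bars except for 0.601 CPM in WT 1, and Mpo, Elane and Ctsg mainly in Ythdf3-/- 3.

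The primary granule genes Mpo, Elane and Ctsg were nearly absent, and apart from 1 count of Elane their counts came from a single library. Mpo (chromosome 11, 87793784 to 87804412), the gene of myeloperoxidase, had 67 counts in Ythdf3-/- 3, as labelled, and 0 in the other 4. Elane (chromosome 10, 79886312 to 79888216), the neutrophil elastase gene, had 22 counts there, 1 count in the library labelled WT 1 and 0 elsewhere. Ctsg (chromosome 14, 56099885 to 56102574), which encodes the granule protease cathepsin G, had 9 counts there and 0 in the other 4. In CPM these are 9.55 for Mpo, 3.13 for Elane and 1.28 for Ctsg. By counting error alone, a count of 0 allows between 0.180 and 0.472 CPM across the libraries. Camp, the gene of the cathelicidin of secondary granules, was highest in the same library, with 7, 0 and 129 counts under the Ythdf3-/- label and 0 in both libraries labelled WT.

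Prtn3, a proteinase of the same granules that is no member of the set, behaved differently from its neighbour Elane. The spans of the pair on chromosome 10 are 3137 bases apart on the same strand. Counts of Prtn3 were 2984, 2770 and 4576 under the Ythdf3-/- label, against 9807 and 3249 under the WT label. Its mean level was 476 ± 173.6 CPM for Ythdf3-/- (SD, n = 3) and 476 ± 160.3 CPM for WT (SD, n = 2), with a fitted log2 fold change of -0.09 (SE 0.41). In the GENCODE M21 annotation an exon of Plppr3 on the opposite strand overlaps Prtn3. Their RefSeq spans do not overlap, as Plppr3 ends at 79874958 and Prtn3 starts at 79879667. Which annotation the counts used is not given. Plppr3 had 900, 416 and 111 counts under the Ythdf3-/- label and 1441 and 344 counts under the WT label. Without strand, reads in such an overlap cannot be assigned to either gene. The promoter windows of the pair (GRCm38.p6, plus strand, Prtn3 at chr10:79879417-79879716 and Elane at chr10:79886062-79886361) are shown because adjacent genes with unlike levels both hold GAGGAA, in capitals, 95 and 85 bases before their starts.
Prtn3: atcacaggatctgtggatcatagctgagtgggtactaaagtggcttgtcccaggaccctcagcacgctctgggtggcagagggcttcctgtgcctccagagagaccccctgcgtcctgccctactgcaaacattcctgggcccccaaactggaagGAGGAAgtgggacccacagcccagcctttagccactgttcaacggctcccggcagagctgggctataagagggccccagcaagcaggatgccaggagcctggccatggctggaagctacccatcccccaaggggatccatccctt
Elane: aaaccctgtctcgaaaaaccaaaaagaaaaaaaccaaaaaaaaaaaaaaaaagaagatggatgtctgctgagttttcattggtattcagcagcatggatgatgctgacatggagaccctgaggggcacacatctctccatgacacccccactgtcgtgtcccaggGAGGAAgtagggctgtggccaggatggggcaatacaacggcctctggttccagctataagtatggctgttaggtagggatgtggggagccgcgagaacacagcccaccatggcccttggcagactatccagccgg

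Of the receptor genes, Csf3r (chromosome 4, 126023441 to 126044975), which encodes the receptor for G-CSF, was read in every library at very unequal levels. Counts were 537, 48 and 561 for the labels Ythdf3-/- 1, 2 and 3, against 21 and 632 for WT 1 and WT 2. The level was 84.5, 5.29 and 79.9 CPM for Ythdf3-/- against 1.26 and 70.5 CPM for WT, so 1 library under each label was low and the groups overlapped. Its fitted log2 fold change of 0.52 (SE 1.74) moved to 5.43 with WT 2 left out and to -0.46 with WT 1 left out. Csf1r, the gene of the CSF1 receptor that macrophages depend on, had 12 counts (0.721 CPM) in the library labelled WT 1 and 0 in the other 4. Those 12 counts stand beside 805 counts of Hmgxb3, a gene on the opposite strand with an overlapping exon in GENCODE M21. In RefSeq the spans do not overlap, as Csf1r ends at 61131139 and Hmgxb3 starts at 61131277. Hmgxb3 also had 651 counts in the library labelled WT 2 and 246 in that labelled Ythdf3-/- 3, where Csf1r had 0. The part of the overlap in the Csf1r counts was not tested. Cebpa (chromosome 7, 35119293 to 35121928) had 1 count in the whole series, in the library labelled WT 2.

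Scaled by exon length, the mean level over the 5 libraries was 477 CPM per kb for Lyz2, 20.9 for C1qb, 13.4 for Csf3r, 13.2 for C1qc and 11.1 for C1qa. The 4 genes after Lyz2 had ranges over libraries that overlap, so their order among themselves is not separated by the spread. Below them stood Elane at 0.650, Mpo at 0.558, Ctsg at 0.248, Csf1r at 0.0250 and Cebpa at 0.00846 CPM per kb. Prtn3, on the same scale, averaged 275 CPM per kb. All members together took 0.118%, 0.0741% and 0.0803% of counts in the libraries labelled Ythdf3-/- 1, 2 and 3, against 0.0437% and 0.0534% in those labelled WT 1 and WT 2. The 95% Wilson interval was 0.115 to 0.121 for the highest of these shares and 0.0428 to 0.0448 for the lowest. These intervals cover counting error of reads only and not the spread among libraries. As the members were chosen on this contrast, nothing is read from the difference.

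**Figure D3:**
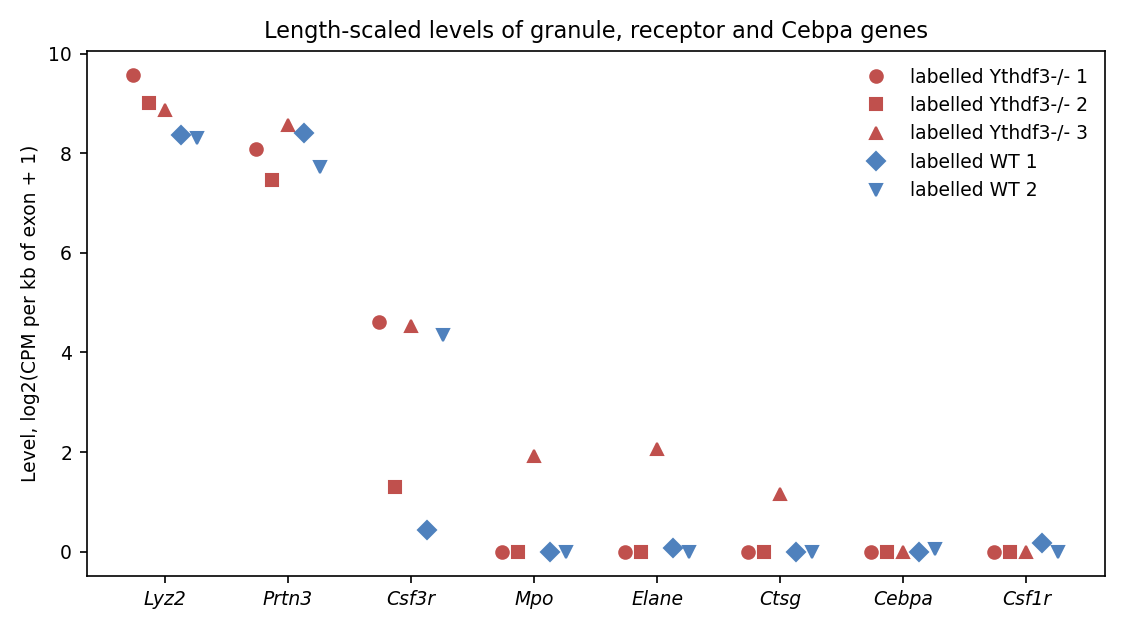
Points give the level per library as log2(CPM per kb of exon + 1) for Lyz2, the non-member Prtn3, Csf3r, Mpo, Elane, Ctsg, Cebpa and Csf1r; red marks libraries labelled Ythdf3-/- and blue those labelled WT. Lyz2 and Prtn3 stand high in all 5 libraries, Csf3r is split within each label, and the others lie near 0 apart from Ythdf3-/- 3.

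Of the 10 members, 5 passed the filter on low counts: C1qa, C1qb, C1qc, Lyz2 and Csf3r. C1qc and Lyz2 were the members whose groups did not overlap, each higher under the Ythdf3-/- label, a pattern shown by 9.74% of the 11146 genes tested; as the set was chosen on C1qc, nothing is read from that count.

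Genes with the most similar course over the 5 libraries were sought among 8776 genes with given names and a mean of at least 10 CPM, by the root-mean-square distance between centred log2(CPM + 1) profiles. The points are 5 libraries that differ in depth, and the likeness is a description. Nearest to C1qc were Ccdc134 (distance 0.20), Pigt, a subunit of the enzyme that attaches GPI anchors (0.25), Hgsnat, a lysosomal enzyme of heparan sulphate breakdown (0.25), and Engase, an endoglycosidase (0.27). Of these, Ccdc134 had 352, 299 and 180 counts under the Ythdf3-/- label and 5 and 0 counts under the WT label. With pseudocounts of 0.1 or 5 CPM, 1 of the 4 nearest genes remained, Ccdc134 each time. Lyz2 lay nearest to Higd2a, an assembly factor of the respiratory chain (0.09), Tcta (0.12), Mad2l2, a factor of DNA damage tolerance (0.13), and Mrpl24, a mitochondrial ribosomal protein gene (0.14), and all 4 remained with either pseudocount. For Mpo the nearest were Fam89b, Setd6, Wrb and Bcl7c at distances between 0.56 and 0.68, and 0 of them remained with either pseudocount. Lyz2, at 416 CPM or more in each library, lies far above these pseudocounts, which could hardly move its profile. Mpo had 0 counts in 4 libraries, so its profile depends on them. The change of pseudocount thus does not compare how firm the 2 sets of neighbours are.

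No other gene of the myeloid lists passed the main test between the labels. Of 132 genes in 6 lists, all of them rows of the table, 63 could be tested, and 0 passed edgeR's quasi-likelihood test at an adjusted p of 0.05, against 0% of all 11146 genes. At an unadjusted p under 0.05, 1 of the 63 was higher and 1 lower, against 2.11% and 2.75% of all genes tested (4.85% in either direction). Of the 77 list genes to which DESeq2 gave an adjusted p it called 1, Cebpd, against 4.47% of all genes with one, and limma voom called 0. Fitted log2 fold changes were positive for 29 and negative for 34 of the 63, with a median of -0.07, and the median over all genes tested was -0.06.

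Macrophage genes were present in part. The defining markers Mertk, Mrc1, Siglec1, Timd4, Marco, Trem2, Ms4a7 and Cd5l had 0 counts in every library, and Adgre1, the F4/80 gene, had 1 count in all. The 26 tissue macrophage genes summed to between 886 and 2313 CPM under the Ythdf3-/- label and to 1317 and 832 CPM in the libraries labelled WT 1 and WT 2, most of it from Apoe, the gene of apolipoprotein E. Of them, between 9 and 11 had a count in the libraries labelled Ythdf3-/- and 13 or 14 in those labelled WT. Apoe averaged 1471 ± 695 CPM (SD, n = 3) under the Ythdf3-/- label and 738 ± 299 CPM (SD, n = 2) under the WT label (log2 fold change 0.92, SE 0.48, edgeR adjusted p = 0.98). Fcer1g, the signalling chain of Fc receptors, averaged 164 ± 67.9 CPM for Ythdf3-/- and 157 ± 22.5 CPM for WT. Cd163, the haemoglobin scavenger receptor, had 67, 43 and 59 counts for Ythdf3-/- against 47 and 0 for WT, or 10.5, 4.74 and 8.41 CPM for Ythdf3-/- against 2.82 and 0 CPM for WT. Of the 10 tested genes of this list it was the 1 that stood higher in every library labelled Ythdf3-/- than in both labelled WT, a pattern shown by 9.74% of all genes tested. Spic, a factor of red pulp and marrow macrophages, had 0, 172 and 304 counts for Ythdf3-/- against 2 and 280 for WT. Axl, a receptor for apoptotic cells, had 114, 1 and 154 counts for Ythdf3-/- against 3 and 2 for WT, high in the libraries labelled Ythdf3-/- 1 and 3, which are also the ones with C1qa. Hmox1, the haem oxygenase gene, was the other way about, with 0, 0 and 219 counts under the Ythdf3-/- label and 987 and 587 counts under the WT label. Of the 10 tested genes of the list 8 had a positive fitted log2 fold change and the median was 0.68; without the library labelled WT 1 the median was 4.86 and without that labelled Ythdf3-/- 3 it was 0.05. The part of macrophages in the C1q counts was not tested.

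**Figure D4:**
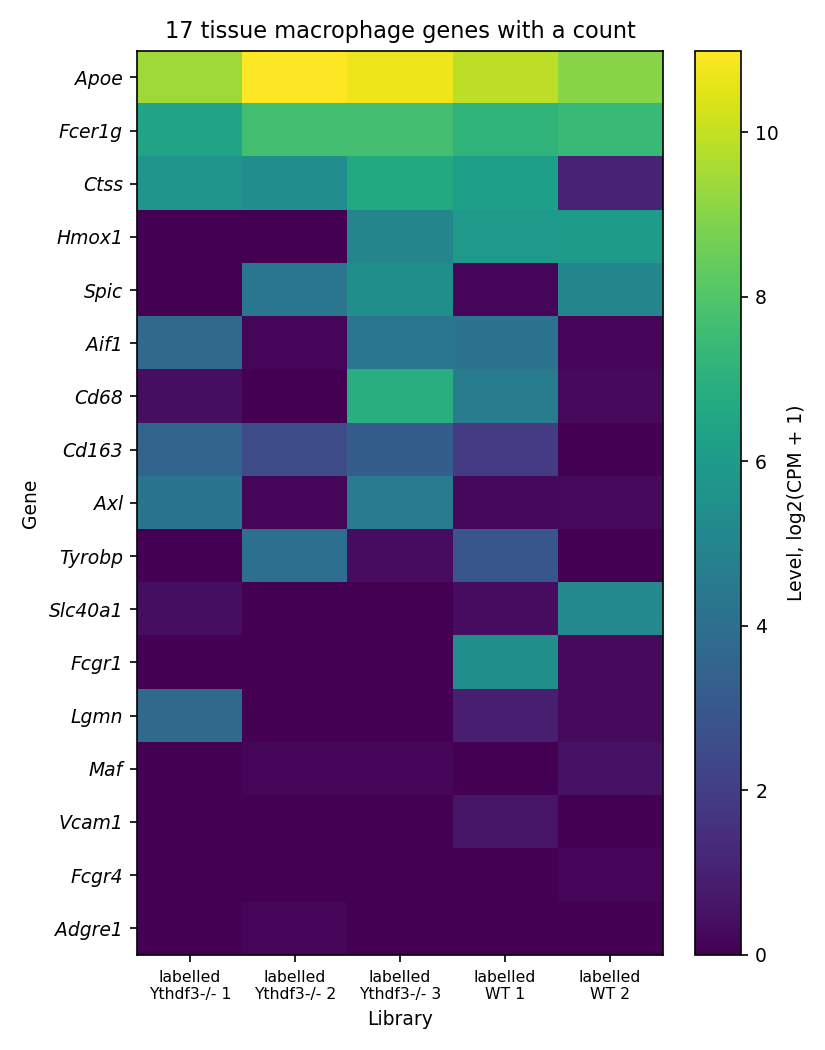
Rows are the 17 tissue macrophage genes with a count in at least 1 library, in order of mean level, columns the 5 libraries, and colour gives log2(CPM + 1). Apoe and Fcer1g are bright in every column, and Axl is seen mainly in Ythdf3-/- 1 and Ythdf3-/- 3.

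Other complement genes were few. Of 24 genes, 11 had 0 counts everywhere, among them C3, C2, C4b and C1s1, and 9 were tested. C1ra, which encodes the protease that C1q activates, had 242, 611 and 286 counts under the Ythdf3-/- label and 431 and 61 counts under the WT label (38.1, 67.3 and 40.8 CPM for Ythdf3-/- against 25.9 and 6.80 CPM for WT), so its groups did not overlap. It was the 1 such gene of the 9 tested, and 9.74% of all genes tested were likewise higher without overlap. The difference did not pass (log2 fold change 1.51, SE 1.47, edgeR adjusted p = 0.9998). C1qbp, a mitochondrial protein first found as a binder of C1q, averaged 249 ± 42.5 CPM for Ythdf3-/- (SD, n = 3) and 330 ± 221 CPM for WT (SD, n = 2). Cd93, a surface glycoprotein once taken for a C1q receptor, averaged 155 ± 91.8 CPM for Ythdf3-/- and 146 ± 108 CPM for WT. Calr, the calreticulin gene, averaged 124 ± 34.8 CPM for Ythdf3-/- and 169 ± 86.2 CPM for WT. Over the 9 tested genes the median log2 fold change was -0.10 and became 0.88 without the library labelled WT 2.

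Among the other granule and oxidase genes, 4 of the 24 had 0 counts in every library and 8 were tested, with 4 positive and 4 negative fitted log2 fold changes. The level of Srgn, which encodes the proteoglycan core of secretory granules, was 587 ± 88.8 CPM (SD, n = 3) under the Ythdf3-/- label and 584 ± 30.0 CPM (SD, n = 2) under the WT label. Ctsc, the activator of granule proteases, averaged 187 ± 79.4 CPM for Ythdf3-/- and 64.5 ± 86.0 CPM for WT. Ncf4, an oxidase subunit gene, had 106, 2 and 31 counts for Ythdf3-/- against 737 and 4 for WT. The median of the 8 tested genes was -0.02 and became 3.81 without the library labelled WT 1, a fit that leaves 1 library labelled WT. Among neutrophil markers, Ly6g, Cd177, Mmp8 and Mmp9 had 0 counts in every library, whereas S100a8 was read in each. Its counts were 57, 101 and 116 under the Ythdf3-/- label and 239 and 102 under the WT label. S100a9 had 4, 1 and 152 counts for Ythdf3-/- against 204 and 4 for WT.

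Monocyte and dendritic cell genes gave 6 tested of 18, with 3 positive and 3 negative fitted log2 fold changes, and 8 with 0 counts everywhere. Ms4a6c had 272, 389 and 547 counts under the Ythdf3-/- label and 1295 and 11 counts under the WT label. Ly86, a partner of a Toll-like receptor relative, had 135, 0 and 171 counts for Ythdf3-/- against 10 and 2 for WT. Irf8, a factor of monocyte and dendritic cell fate, had 274, 220 and 7 counts for Ythdf3-/- against 431 and 7 for WT, so each label held a library with 7 counts. S100a4 averaged 28.4 ± 21.3 CPM (SD, n = 3) under the Ythdf3-/- label and 39.1 ± 29.7 CPM (SD, n = 2) under the WT label. The list's median log2 fold change, -0.06, was 2.62 with WT 1 left out.

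The other receptors and their signalling genes held the 2 genes at an unadjusted p under 0.05. Il3ra, a chain of the IL-3 receptor, had 1, 1 and 0 counts under the Ythdf3-/- label and 394 and 19 counts under the WT label (log2 fold change -7.03, SE 2.87, edgeR adjusted p = 0.97). Stat3, which relays the signal of the G-CSF receptor, stood at 389, 549 and 261 CPM for Ythdf3-/- against 225 and 88.3 CPM for WT (log2 fold change 1.28, SE 0.54, edgeR adjusted p = 0.98). Jak1 averaged 282 ± 155 CPM under the Ythdf3-/- label (SD, n = 3) and 398 ± 172 CPM under the WT label (SD, n = 2). Ifngr1 averaged 136 ± 56.6 CPM for Ythdf3-/- and 66.9 ± 46.8 CPM for WT. Of 15 tested genes, 5 had a positive and 10 a negative fitted log2 fold change, with a median of -0.51 that was 0.08 with WT 2 left out and -0.01 with Ythdf3-/- 2 left out.

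Some transcription factors of the lineage were read where Cebpa was not. Of the 21 listed, 3 had 0 counts in every library, namely Cebpe, Irf4 and Klf4. Spi1, the PU.1 gene, had 1445, 1444 and 3284 counts under the Ythdf3-/- label and 4118 and 566 counts under the WT label, and thus at least 566 counts in every library. Cebpd, a relative of Cebpa, had 455, 3 and 583 counts for Ythdf3-/- against 16 and 9 for WT (log2 fold change 5.60, SE 2.57, edgeR adjusted p = 0.98; DESeq2 adjusted p = 0.026). It was high in the libraries labelled Ythdf3-/- 1 and 3 and had 3 counts in that labelled Ythdf3-/- 2, as with C1qa. Gata2, a factor of stem cells and progenitors, averaged 220.3 ± 60.5 CPM (SD, n = 3) under the Ythdf3-/- label and 221 ± 164 CPM (SD, n = 2) under the WT label. Egr2 stood at 66.1 ± 20.1 CPM for Ythdf3-/- and 115 ± 43.0 CPM for WT, and Id2 at 22.8 ± 8.80 CPM for Ythdf3-/- and 64.7 ± 57.7 CPM for WT. Of 16 tested factors, 7 had a positive and 9 a negative fitted log2 fold change; the median, -0.22, became 0.46 without the library labelled WT 1.

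The summed level of markers of a further cell type did not overlap between the labels. The 8 T and NK cell genes summed to between 30.5 and 93.1 CPM under the Ythdf3-/- label and to 3.48 and 10.4 CPM in the libraries labelled WT 1 and WT 2, with 2 to 4 of the 8 genes read in any library. Lck, Nkg7 and Klrb1c made up most of it. Lck alone of the 3 did not overlap, while Nkg7 and Klrb1c did. Of all single genes tested, 20.7% did not overlap in either direction and 9.74% were higher without overlap under the Ythdf3-/- label. No such share was computed for sums, so nothing is read from such a pattern here. The defining markers Cd3d, Cd3g and Ncr1 had 0 counts in every library and Cd3e had 1 count in all. Their part in the C1qc difference was not tested. B cell genes summed to between 96.3 and 1393 CPM for Ythdf3-/- and to 559 and 57.4 CPM for WT. Megakaryocyte genes summed to between 154.6 and 201.4 CPM for Ythdf3-/- and to 287 and 210.2 CPM for WT, lower under the Ythdf3-/- label by a narrow margin. Of the 5 tested genes of that list, 2 had a positive and 3 a negative fitted log2 fold change. The mast cell and basophil list had 0 counts except 7 of Cpa3 in the library labelled WT 1.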

How the data were processed

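RNA of 30 sorted HSCs per library was measured by Smart-seq2 with paired 150-base reads, per the labels' protocols. The authors deposited 1 table of raw read counts per gene symbol, used here as given; per the submitters' processing notes, which assign no roles, the tools were HISAT2 2.2.1 and HTSeq 0.12.4 with build mm10. The sources used here do not give the annotation, the strand setting or the handling of multiply matching reads. From the counts, CPM were computed as count over library total, and CPM per kb with exon lengths of GENCODE M21. Spans come from a RefSeq table of GRCm38.p6, the assembly of mm10, which matched 32501 of 35976 symbols (90.3%), and are 1-based.

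Groups follow the sample titles. All genes were fitted with edgeR 4.0.16 in R 4.3.3 (quasi-likelihood, default filter, TMM, robust, no covariate) and adjusted by Benjamini-Hochberg at 0.05; SEs of log2 fold changes derive from its F statistic. The test was tested on simulated data in which all genes shared the same spread. It found the changed genes where libraries of a label varied little. It did not call them at a spread about as wide as the common one of these libraries. A lack of calls thus says little for genes that varied so widely. Genes read more evenly, such as Srgn (SE 0.30) and Lyz2 (SE 0.34), were not simulated at their own spread. DESeq2 1.42.0 and limma 3.58.1 voom were alternatives, with 3 other scalings, 2 other filters, each library left out and a replicate block. The members and lists were chosen with earlier results of these data known. Genes named besides the members were, per list, the 3 with the smallest unadjusted p and the 2 with the highest mean CPM among tested genes, the nearest profiles, and Ythdf3. Other genes named (Lyz1, Prtn3's and Csf1r's overlapping neighbours, Camp, S100a8, S100a9, Cd163, Spic, the marker genes of the sort and genes listed at 0) were chosen after their values were seen. Some listed genes are not reported here by name. Depth sets the floor of a level: 3 counts are worth between 0.180 and 0.472 CPM. This floor covers counting error alone and not the wider spread among libraries of a label.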

Additional observations from a re-analysis of the deposited data

How the results depend on the processing

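Of the 11146 genes tested 0 passed edgeR at 0.05, with 541 at an unadjusted p under 0.05. The count was 0 under each other scaling, with the filter of 1 CPM in 2 libraries, with limma voom (726 unadjusted) and with the replicate block (285 unadjusted). It was 21 with no filter on low counts and 594 with DESeq2, and between 0 and 1 when single libraries were left out. Leaving out the libraries labelled Ythdf3-/- 2 and Ythdf3-/- 3 together, a choice made after seeing the data because they hold reads of Ythdf3, gave 7; leaving out those labelled WT 2 and Ythdf3-/- 1 together gave 0. For the other myeloid genes the count was 1 with DESeq2 and 0 under every other alternative run, those that leave out a library included. Same-numbered libraries did not deviate together (correlation of deviations over genes -0.0043 for number 1 and 0.0094 for number 2), so the numbers are taken as names only. Under the replicate block the log2 fold change was 7.99 for C1qc, 5.52 for C1qa, -2.21 for C1qb, 0.87 for Lyz2 and 1.06 for Csf3r. Leaving single libraries out gave between 5.23 and 10.17 for C1qa, between -1.25 and 4.87 for C1qb, between 6.07 and 11.34 for C1qc, between 0.54 and 0.90 for Lyz2 and between -0.46 and 5.43 for Csf3r; C1qa gave no value without the library labelled Ythdf3-/- 1 or Ythdf3-/- 3, where it failed the filter. With either WT library left out a lone one remains, assumed to vary like the others, and the median of all genes, -0.06, was 0.31 without WT 1 and 0.22 without WT 2. Mpo, Elane, Ctsg, Csf1r and Cebpa have too few counts for a fold change.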

Other observations

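Some myeloid genes belonged almost wholly to a single library, and which ones differed from library to library. In the library labelled Ythdf3-/- 1 these were Cst7, with 184 counts there and at most 3 elsewhere, and Lgmn. That labelled Ythdf3-/- 2 had Socs3, the feedback inhibitor of cytokine receptors, with 404 counts and at most 6 elsewhere, and Cfb, complement factor B, with 108 and at most 1. Camp was read mainly in that labelled Ythdf3-/- 3. The library labelled WT 1 held Fcgr1, a high-affinity receptor for IgG, with 727 counts and at most 2 elsewhere, Cybb, the catalytic oxidase subunit gene, with 509 and at most 2, Cebpb with 211 and at most 1, and Il3ra. The library labelled WT 2 held Slc40a1, the iron exporter gene, with 310 counts and at most 5 elsewhere, and Trib1 with 252 and 0. These 11 genes, for which a single library held 90% or more of the CPM summed over libraries, were 14.1% of the 78 members and other myeloid genes with at least 100 counts in all; over all such genes the share was 11.3% (1362 of 12060).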
